A study of Danio rerio with 4 samples.

Results

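The TGF-beta, BMP and Id genes were examined in 2 populations of adult zebrafish kidney cells. Per the labels, cells with low forward and side scatter, the lymphoid gate of a cell sorter, were sorted on Hoechst staining, the side population (zSP) being the dim part that pumps the dye out and the main population (zMP) the rest. The labels name no strain, genotype or treatment, and give the age as adult. Lysates of 3 sorting experiments on 20 fish were joined into 1 pool per population, and each pool was run as aliquots on 2 arrays, so that the spread between the arrays of a population is technical. Genes were chosen by the symbol of the array's annotation (smad, smurf, bmp, bmpr, tgfb, acvr, gdf, inhb, fsta, nog, chrd, ltbp, bambi and id1 to id4), which gave 46 of 8793 genes with a probe set of their own. They comprised 16 ligands, 6 extracellular regulators, 9 receptors, 9 Smads and Smurfs, 5 Id genes and the kinase gene bmp2k, which carries the letters of a ligand but encodes an intracellular kinase.

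TGF-beta, activin and BMP ligands are secreted dimers that bring type I and type II receptor kinases together on a target cell, and extracellular antagonists such as noggin, chordin and follistatin bind them before they reach the receptors. The type I receptor phosphorylates receptor Smads, which move to the nucleus with Smad4 and switch on target genes, while the inhibitory Smads and the Smurf ubiquitin ligases dampen the signal. The Id genes are classic BMP targets. Their proteins are helix-loop-helix factors without a DNA-binding region, which bind E proteins and keep them off DNA. In blood the pathway is known for its part in the balance between rest and division of stem cells, and Id proteins for restraining lymphoid differentiation.

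Values are log2 units made by the authors with RMA, and a difference is the zSP mean minus the zMP mean over arrays. In brackets after it stands its range over the 4 pairings of a zSP with a zMP array. A gene was called when all 4 pair differences were at least 1, that is 2-fold, in 1 direction. With 1 pool each the populations cannot be tested against each other, so a call has no p-value. The highest group mean of 49 control probe sets for sequences that zebrafish cells do not transcribe was 6.15, set by an EGFP reporter, and the next was 5.24. A value at or below 6.15 lay within this blank range, where the presence of a transcript is not shown. Levels of different genes come from different probes and are not compared.

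The Id genes id1 and id2b and the BMP type I receptor gene bmpr1aa read higher in the side population, with means above the blank range in zSP and within it in zMP. Measured against the upper blank control of 6.15 in place of their zMP means, the differences were at least 3.09, 2.42 and 0.97 log2 units, so that for bmpr1aa this bound fell short of 2-fold. The activin subunit gene inhbb and the activin antagonist gene fsta were also called higher in zSP, with both means within the blank range. These were the 5 of 46 genes called higher in zSP (10.9%), against 7.85% of all 8793 genes. None of the 46 was called higher in zMP, against 2.89% of all genes. The median difference over the 46 genes was -0.09 (-0.23 to -0.03 over the pairs of arrays), beside -0.20 over all genes, and the share of calls lay near the background. The calls of bmpr1aa and fsta rested on 1 of several probe sets. It was chosen by the highest mean, a rule that can favour probe sets high in 1 population. Leaving out an array cannot remove a call, so it adds no check.

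**Figure D1:**
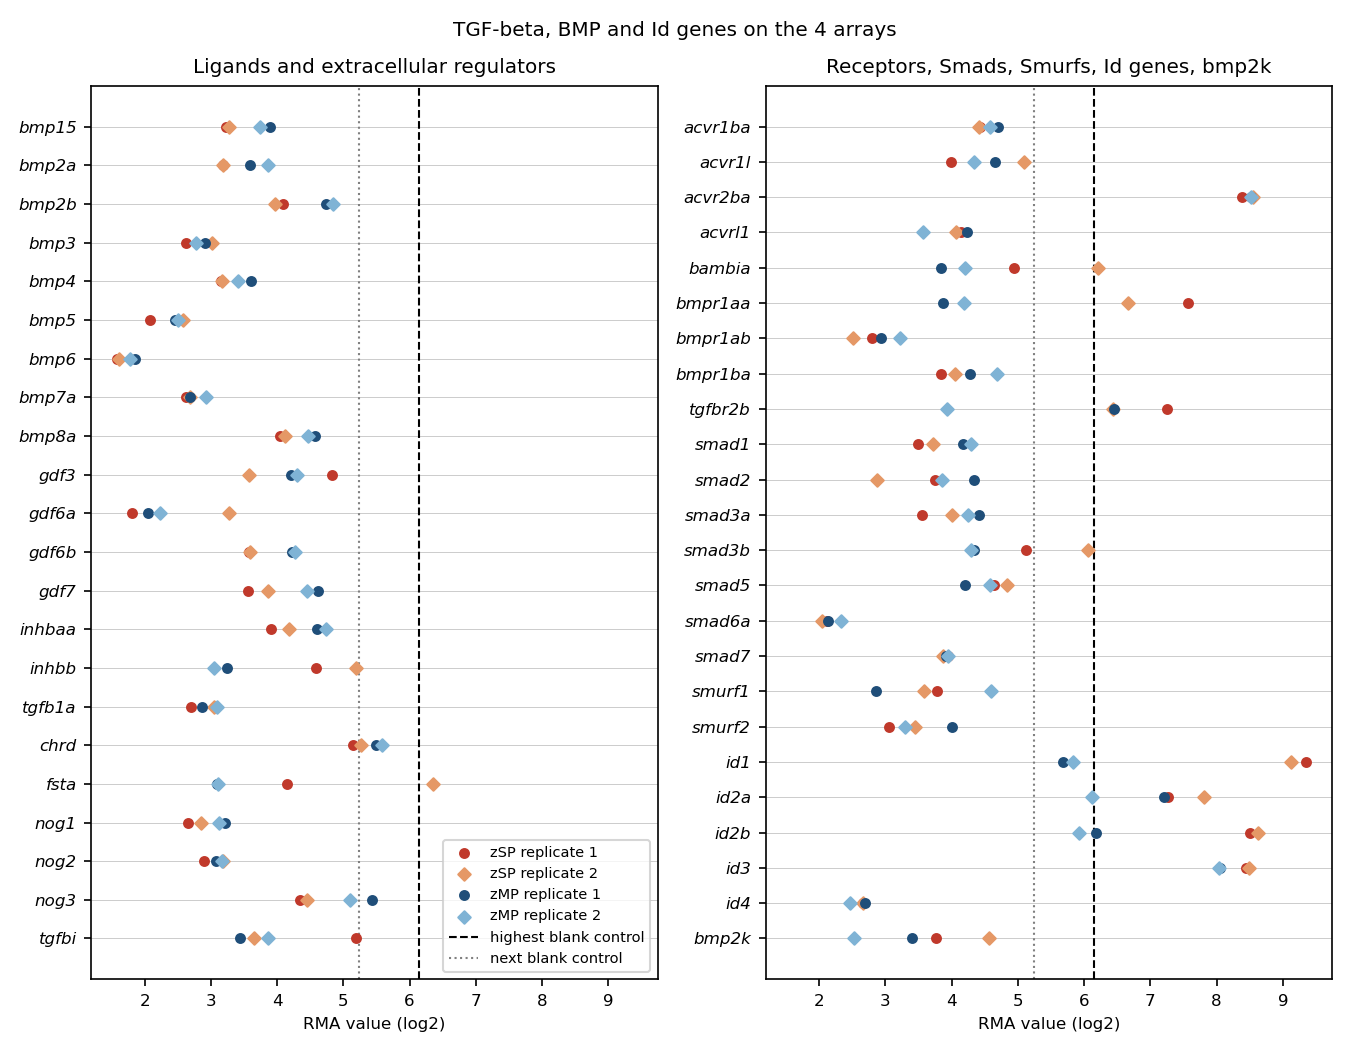
RMA values (log2, horizontal axis) of the 46 genes on each of the 4 arrays, zSP in red and orange and zMP in dark and light blue, with dashed and dotted lines at the highest (6.15) and next highest (5.24) blank control. The zSP points of id1, id2b and bmpr1aa lie to the right of the dashed line and away from the zMP points, while no ligand reaches that line.

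Most of the 46 genes stayed in the blank range. A group mean above 6.15 in either population was found for 7 of them (15.2%), against 33.2% of all genes, and above 5.24 for 12 (26.1%), against 46.1% of all genes. The 7 were acvr2ba, bmpr1aa, tgfbr2b, id1, id2a, id2b and id3. In zMP only acvr2ba, id2a and id3 of the 46 had a mean above 6.15. For the other 39 genes the presence of a transcript was not shown in either pool.

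Among the ligands, inhbb, which encodes the beta B subunit shared by activin B and inhibin B, was the 1 of 16 called. It read 4.58 and 5.20 on the zSP arrays and 3.25 and 3.04 on the zMP arrays. Both zSP arrays lay above both zMP arrays, but all 4 values were below even the lower blank control of 5.24. The difference was 1.74 (1.33 to 2.15), with no fold given between values in the blank range. It stood at 1.43 to 2.05 with 1 array left out.

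The other 15 ligand genes were not called. Their differences ran from -0.83 for gdf7, a BMP-type growth factor gene, to 0.40 for gdf6a. None of the 16 ligands had a group mean above 5.24. For bmp2b, which patterns the back-to-belly axis of the embryo, the zSP arrays read 4.10 and 3.97 and the zMP arrays 4.73 and 4.84. Its zSP values lay below its zMP values with a difference of -0.75 (-0.87 to -0.64). The related bmp4 differed by -0.34 (-0.45 to -0.24), bmp2a by -0.55 and bmp7a by -0.15. For tgfb1a, the only TGF-beta ligand gene measured, the zSP arrays read 2.70 and 3.05 and the zMP arrays 2.87 and 3.09, so that the groups overlapped. The activin beta A gene inhbaa, whose product can pair with that of inhbb, differed by -0.63 (-0.84 to -0.42). A second inhbaa probe set differed by 0.02 (-0.55 to 0.58), with overlapping groups.

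Small shifts towards zMP were common in this class and in the data as a whole. The zSP arrays lay below the zMP arrays without overlap for 10 of the 16 ligands and for 20 of the 46 genes (43.5%), against 41.0% of all genes. The zSP arrays lay above without overlap for 11 of the 46 (23.9%), against 21.7% of all genes. Among the 49 blank controls the median difference was -0.38, and 48 were lower in zSP. The median difference of the ligands was -0.29 (-0.41 to -0.29 over the pairs), with 14 of 16 below 0. After cyclic loess, a scaling that moved the median of all genes from -0.20 to 0.0024, the ligand median was -0.09 and 9 of 16 were below 0. Without overlap, 8 of the 16 still lay below zMP, against 2411 of all 8793 genes. The signs of some ligands thus depended on the scaling, and all ligand means lay within the blank range, so no direction is given for the uncalled ligands.

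Of the 6 extracellular regulators, fsta was called. Its product follistatin binds activins and, more weakly, some BMPs. The zSP arrays read 4.15 and 6.35 and the zMP arrays 3.09 and 3.10. Only zSP replicate 2 lay above the blank range, and the zSP arrays were 2.20 apart. The difference was 2.16 (1.05 to 3.26), 3.25 without zSP replicate 1 and 1.06 without zSP replicate 2. Its second probe set read 3.35 and 3.89 in zSP and 4.08 and 3.81 in zMP, a difference of -0.33, and the mean over both probe sets was 0.92 and not called. In zMP the second probe set read higher than the one used, so here too the zSP values decided the choice by highest mean.

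The BMP antagonists did not share that pattern. The noggin genes nog1, nog2 and nog3 differed by -0.42, -0.07 and -0.87 (-1.09 to -0.65), and the chordin gene chrd by -0.33 (-0.43 to -0.23), with group means of chrd between 5.20 and 5.54. The highest noggin mean was 5.26, that of nog3 in zMP. The gene tgfbi, which encodes a matrix protein induced by TGF-beta, read 5.19 and 3.66 in zSP and 3.43 and 3.86 in zMP, with overlapping groups. The class median was -0.20, and 0.01 after cyclic loess.

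**Figure D2:**
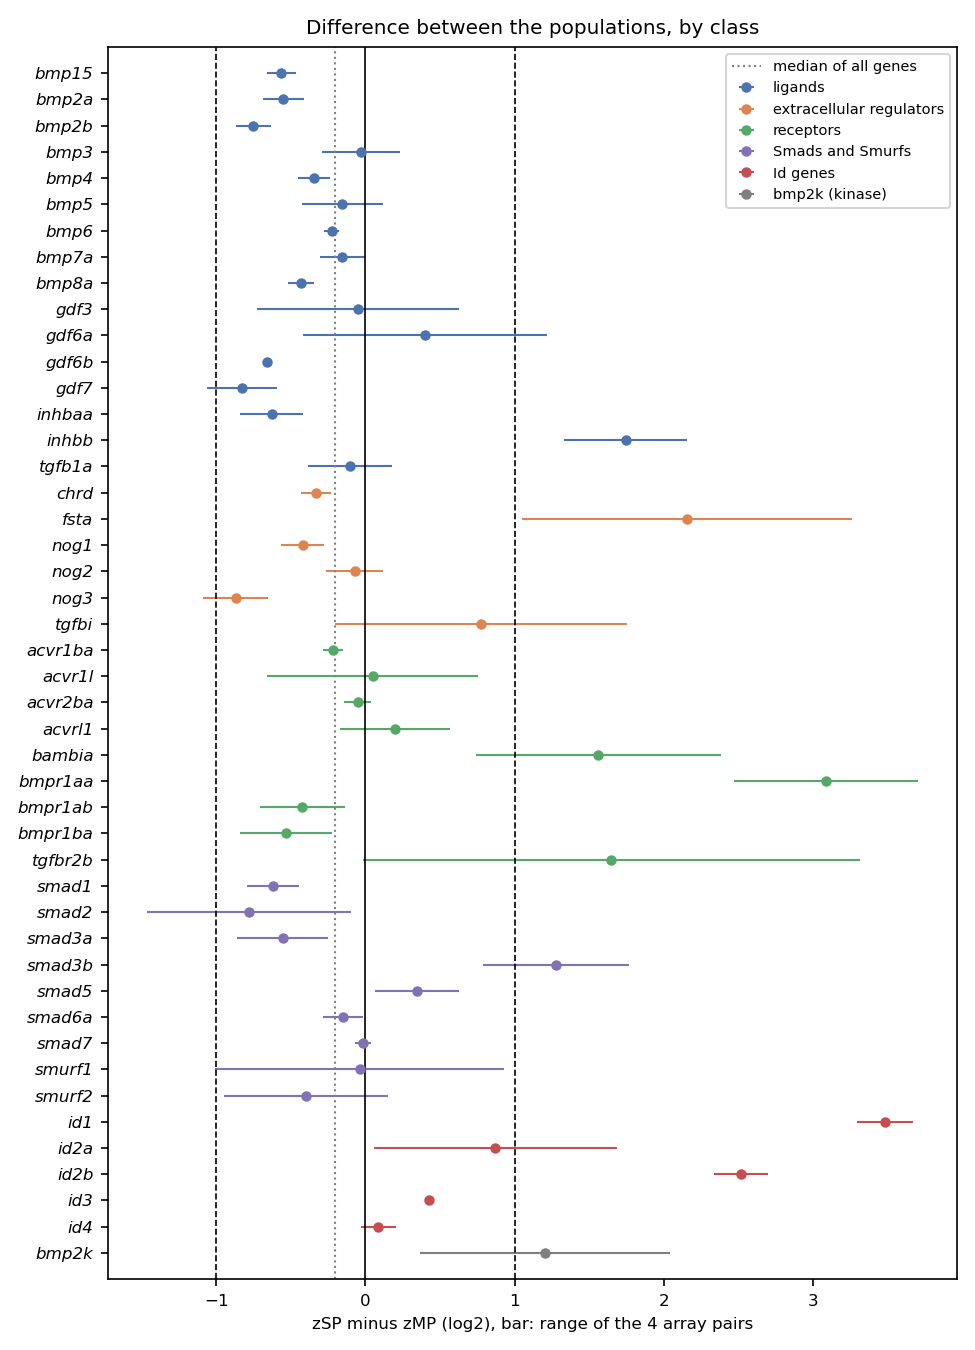
Difference between the populations (zSP minus zMP, log2, horizontal axis) for the 46 genes, coloured by class, with bars for the range of the 4 array pairs, dashed lines at the 2-fold size of a call and a dotted line at the median of all genes (-0.20). The bars of inhbb, fsta, bmpr1aa, id1 and id2b lie wholly beyond the right-hand dashed line, and every uncalled ligand centres between the dashed lines.

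The BMP type I receptor gene bmpr1aa, a zebrafish counterpart of the receptor ALK3, had the largest difference among the 9 receptor genes. It read 7.57 and 6.66 on the zSP arrays and 3.87 and 4.19 on the zMP arrays. Both zSP values lay above the blank range and both zMP values within it. The difference of the measured means was 3.09 (2.47 to 3.71). With the zSP mean set against the upper blank control, this probe set was at least 1.96-fold higher in zSP. That is a bound on the means of 1 probe set, not on each array or on the gene. The 2 other probe sets of bmpr1aa did not repeat it. One read 4.24 and 3.54 in zSP against 2.97 and 3.04 in zMP, a difference of 0.88 (0.50 to 1.26), and the other differed by -0.47, with means of 4.19 and 4.66. In zMP the latter read higher than the probe set used, 4.66 against 4.03, so the zSP values decided the choice. The mean over the 3 probe sets was 1.17 and not called.

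The other BMP type I receptor genes were within the blank range in both populations. The sister gene bmpr1ab differed by -0.42 (-0.71 to -0.14), bmpr1ba, the ALK6 counterpart, by -0.53 and acvr1l, known in zebrafish as alk8, by 0.05 (-0.66 to 0.76). For acvrl1, a receptor gene best known from endothelium, the difference was 0.20 with overlapping groups.

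The activin type II receptor gene acvr2ba was above the blank range in both populations. It read 8.38 and 8.56 in zSP and 8.52 and 8.52 in zMP. The groups overlapped, with a difference of -0.05 (-0.15 to 0.04). A second probe set of the gene, whose name marks sequence shared between transcripts, read 7.09 and 6.02 in zSP and 3.23 and 3.83 in zMP, a difference of 3.02 (2.18 to 3.86) that met the size of a call. The last, at 1.84 to 1.99 on all arrays, differed by 0.07. The activin type I receptor gene acvr1ba differed by -0.22 (-0.29 to -0.15) within the blank range.

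The TGF-beta type II receptor gene tgfbr2b read 7.25 and 6.44 in zSP and 6.46 and 3.93 in zMP. The zMP arrays, aliquots of the same RNA, were 2.52 apart, the widest gap among the 46 genes, and the groups overlapped. Its difference of 1.65 (-0.02 to 3.31) was 2.91 and called without zMP replicate 1, and 0.39 without zMP replicate 2. The second probe set differed by -0.08. The pseudoreceptor gene bambia, whose product lacks the kinase and blunts signalling, read 4.94 and 6.21 in zSP and 3.83 and 4.20 in zMP. Its groups did not overlap, but 1 pair of arrays differed by only 0.74 and the difference of 1.56 (0.74 to 2.38) was not called. It was called without zSP replicate 1, at 2.19, and without zMP replicate 2, at 1.75, and was 0.93 and not called without zSP replicate 2.

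None of the 9 Smad and Smurf genes was called, and none had a group mean above 6.15. The gene smad3b, a receptor Smad of the TGF-beta and activin branch, came closest. It read 5.12 and 6.05 in zSP and 4.33 and 4.29 in zMP. The groups did not overlap, with a difference of 1.28 (0.79 to 1.76), and it was 1.74 and called without zSP replicate 1. Its sister gene smad3a differed the other way, by -0.55 (-0.86 to -0.25), at group means of 3.78 and 4.33. So did smad2 of the same branch, by -0.78 (-1.47 to -0.10), the lowest difference of the class, and its second probe set gave -0.58. On the BMP branch, smad1 differed by -0.62 (-0.80 to -0.45) and smad5 by 0.35 (0.06 to 0.63), where a second smad5 probe set gave -0.38. The inhibitory Smad genes, themselves induced by the pathway, stood at -0.15 for smad6a and -0.02 (-0.07 to 0.03) for smad7. The ubiquitin ligase gene smurf1 read 2.85 and 4.60 on the zMP arrays and 3.79 and 3.59 on the zSP arrays, and smurf2 differed by -0.40 with overlapping groups. No gene smad4 was among those with a probe set of their own, so the common Smad was not analysed here.

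All 5 Id genes had a difference above 0, against 39.0% of all genes, and stayed above 0 after a further quantile normalization. Median centring raised every gene by the same amount, so it could not turn these signs, and cyclic loess raised all 5 differences. The difference of id4, within the blank range, was -0.03 without zMP replicate 2. The class median was 0.87 (0.40 to 1.68), the value of id2a, and 0.42 to 1.42 with 1 array left out. Beside it stood -0.15 for the other 41 genes and -0.20 for all genes. These sets differ in level, as 4 of the 5 Id genes but only 3 of the other 41 had a mean above the blank range. Among genes above that range, the median was 1.69 for the Id genes and -0.03 for all genes, under a filter that favours genes high in 1 population. With 5 genes and 1 pool per population this is a description. Mean levels of the 5 genes were 7.25 and 7.34 on the zSP arrays and 5.96 and 5.67 on the zMP arrays.

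The gene id1 was the first of the 2 Id genes called. It read 9.35 and 9.12 on the zSP arrays and 5.68 and 5.83 on the zMP arrays. The aliquots of a population were at most 0.23 apart, and the zMP mean of 5.75 lay between the lower blank control of 5.24 and the upper one of 6.15. The difference of the measured means was 3.48 (3.29 to 3.67), and with the zSP mean set against the upper blank control id1 was at least 8.51-fold higher in zSP. The measured difference stayed between 3.35 and 3.60 with each array left out and under the 3 other scalings.

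The gene id2b was the second Id gene called. It read 8.51 and 8.62 on the zSP arrays and 6.18 and 5.93 on the zMP arrays. Its zMP mean of 6.05 was just within the blank range up to 6.15 and above the lower control. The difference of the measured means was 2.52 (2.34 to 2.70), and with the zSP mean set against the upper blank control id2b was at least 5.35-fold higher in zSP. Its second probe set read 7.28 and 7.18 in zSP and 5.35 and 5.12 in zMP, a difference of 2.00 (1.84 to 2.15) that also met the size of a call. Of the 3 called genes with several probe sets, id2b was the only one for which all of them were called.

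Its duplicate id2a behaved less clearly. It read 7.27 and 7.81 in zSP and 7.21 and 6.12 in zMP, with 1 zMP array almost level with zSP replicate 1. The difference was 0.87 (0.06 to 1.68) and not called, 1.42 and called without zMP replicate 1, and 0.33 without zMP replicate 2. The gene id3 was above the blank range in both populations and repeated closely. It read 8.45 and 8.48 in zSP and 8.05 and 8.03 in zMP. The groups did not overlap, and its difference of 0.43 (0.40 to 0.45), or 1.34-fold, was under the size of a call. The zSP aliquots were 0.03 apart, but over all probe sets the differences between zSP aliquots had a standard deviation of 0.76. A difference at least as large as that of id3 was found for 25.2% of all genes. The gene id4 lay within the blank range at 2.66 and 2.67 in zSP and 2.70 and 2.46 in zMP, and the groups overlapped.

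The kinase gene bmp2k, named for its induction by BMP2, read 3.77 and 4.57 in zSP and 3.40 and 2.53 in zMP. The groups did not overlap, and its difference of 1.20 (0.37 to 2.04) was not called and lay within the blank range.

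**Figure D3:**
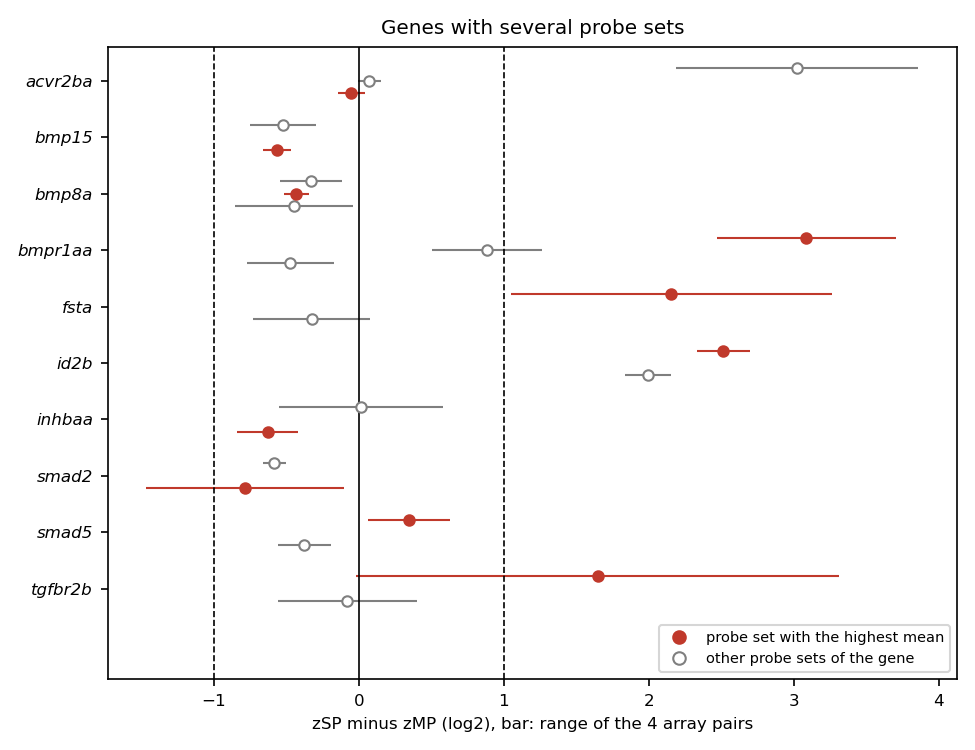
Differences (zSP minus zMP, log2, horizontal axis) of every probe set of the 10 genes that had several, with bars for the range of the 4 array pairs. The probe set with the highest mean, used throughout, is filled. Those of id2b agree on a call, whereas bmpr1aa, fsta and acvr2ba each have 1 probe set beyond the 2-fold line and others short of it.

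Of the 46 genes, 10 had several probe sets, and in 3 of these (30.0%) some probe sets were called and others not, against 12.3% of the 1539 such genes on the array. The 3 were acvr2ba, bmpr1aa and fsta. The probe sets of a gene differed by up to 3.56 in their difference between populations, the most for bmpr1aa. Before labelling, the RNA was amplified by in vitro transcription 2 times in succession, and such copies grow shorter towards the 3′ end. For the GAPDH controls, the 3′ probe set exceeded the 5′ one by 3.94 in zSP and by 3.09 in zMP. Where the probe sets lie on their transcripts is not given in the files, and the part of RNA length in these disagreements was not tested.

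Genes outside the symbol rule were followed in fixed lists. These were chosen with earlier results of these data known, so the shares called in them are descriptions. Among 39 response genes of TGF-beta and BMP with a probe set, 10 were called towards zSP (25.6%, against 7.85% of all genes) and none towards zMP (against 2.89%), while the median difference was -0.27 (-0.43 to -0.13 over the pairs). The actin-binding tagln, a smooth muscle gene, read 10.77 and 10.46 in zSP and 4.16 and 4.13 in zMP, and the smooth muscle actin acta2 9.95 and 9.78 against 4.34 and 4.46. Both were high on both zSP arrays and within the blank range in zMP, with differences of 6.47 and 5.46. The matricellular genes ccn1 and ccn2a were higher by 5.17 (4.26 to 6.08) and 3.70 (3.03 to 4.38). Named after their values were seen, the other called genes were the transcription factors snai2, klf11b, junba and junbb, at 3.39, 1.82, 1.57 and 1.12, and the matrix genes fn1b and col1a2, at 2.56 and 2.05. For klf11b and col1a2 both means lay within the blank range. The genes ccn1, snai2 and col1a2 had several probe sets, of which only that with the highest mean was read. Of the called response genes, tagln, acta2, ccn2a and col1a2 also stand among the stroma and smooth muscle markers below.

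The 29 response genes not called included the lowest difference of the list, -1.99 (-3.08 to -0.90) for the transcription factor gene runx3, and values up to 1.77 (0.86 to 2.68) for the collagen gene col1a1a. The zMP mean of runx3, 7.06, was above the blank range and its zSP mean of 5.08 within it. Among BMP targets of the zebrafish embryo, all with group means within the blank range, the homeobox genes msx1a, msx1b, msx2a, msx2b and msx3 differed by -0.59 to -0.27. The genes vent, vox, ved and the antagonist gene szl differed by -0.48 to -0.14, and atoh8 and tbx2b by 1.21 and 0.78. Single arrays above the range were zSP replicate 1 for atoh8, at 6.17, and zSP replicate 2 for tbx2b, at 6.23. All of these were named after their values were seen.

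**Figure D4:**
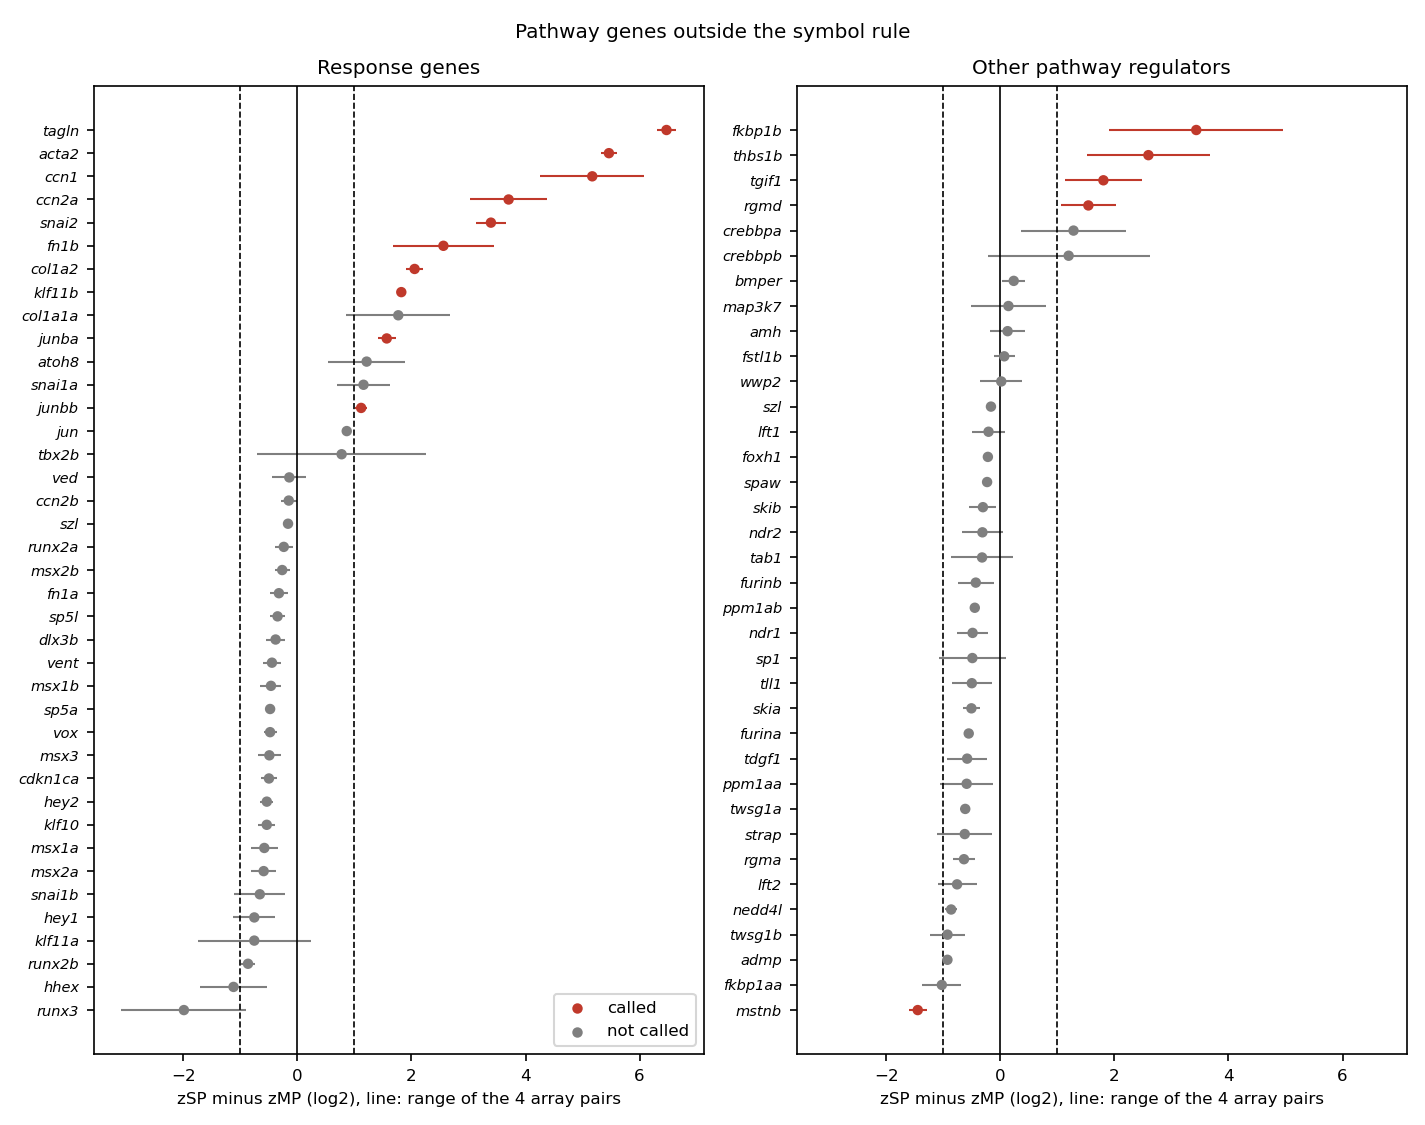
Differences (zSP minus zMP, log2, horizontal axis) of 39 response genes (left) and 36 other pathway regulators (right), sorted by size, with lines for the range of the 4 array pairs and called genes in red. Of the response genes 10 are called, all towards zSP, and of the regulators 4 are called towards zSP and 1, mstnb, towards zMP.

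Of 36 other regulators of the pathway, 4 were called towards zSP (11.1%) and 1 towards zMP (2.78%), near the 7.85% and 2.89% of all genes, and the median difference was -0.38 (-0.42 to -0.24). The corepressor gene tgif1, whose product binds Smads, read 7.41 and 6.85 in zSP and 5.71 and 4.94 in zMP. Both zSP arrays were above the blank range and both zMP arrays within it, with a difference of 1.81 (1.14 to 2.48). The immunophilin gene fkbp1b read 7.16 and 8.19 in zSP and 3.23 and 5.25 in zMP, a difference of 3.43 (1.91 to 4.96) with zMP arrays 2.02 apart. Its relative fkbp1aa, the counterpart of the FKBP12 that holds type I receptors inactive in mammals, differed by -1.03 (-1.36 to -0.69) and was not called. It was picked after its value was seen. The thrombospondin gene thbs1b, whose mammalian counterpart can activate latent TGF-beta, and rgmd, of a family of BMP co-receptors, were higher by 2.60 and 1.54, though neither left the blank range in either population. The myostatin gene mstnb, named after its value was seen, differed by -1.45 (-1.61 to -1.29), also within the blank range.

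Of 13 E protein, helix-loop-helix and other transcription factor genes that Id proteins are known to bind or act through, none was called in either direction, and 10.7% of all genes were. The median was -0.42 (-0.48 to -0.22). The ETS factor gene ets1 read 4.44 and 5.40 in zSP and 7.08 and 6.36 in zMP, a difference of -1.80 (-2.64 to -0.97) that missed the size of a call in 1 pair. The E protein gene tcf12 read 5.35 and 4.15 in zSP and 5.92 and 6.30 in zMP, a difference of -1.36 (-2.15 to -0.57).

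Cell type markers, in lists chosen in the same way, were read on the same arrays. The counts of calls stand beside 7.85% of all genes called higher in zSP and 2.89% called higher in zMP. Of 15 epithelium and tubule markers, 12 were called higher in zSP, with mean levels of 8.12 and 7.79 on the zSP arrays and 3.94 and 3.87 on the zMP arrays. In zSP 9 of the 15 had means above the blank range, and in zMP all but 1, krt8, had means within it. The called slc13a1, hnf1bb and pax2a, named after their values were seen, had both means within the blank range. Of the 3 not called, slc12a3 and pax8 differed by -0.93 and -0.78, within the blank range in both populations. They were named after their values were seen. Of 8 stroma and smooth muscle markers, 7 were called higher in zSP, with mean levels of 8.15 and 7.87 against 4.48 and 4.62. The called col1a2 and postnb, named after their values were seen, had both means within the blank range. The genes tagln, acta2, ccn2a, col1a2 and the uncalled col1a1a stand both in that list and among the response genes. The 5 endothelial markers had 3 calls, with mean levels of 5.98 and 5.94 against 4.73 and 4.23. Of those called, kdrl had both means within the blank range. The 4 thrombocyte markers had 2 calls, at 5.02 and 4.86 against 3.50 and 3.71. These were f13a1a.1 and thbs1b, with means within the blank range in both populations, and thbs1b also stands among the regulators. The thrombocyte marker itga2b, named after its value was seen, had means of 7.24 in zSP and 7.06 in zMP, with overlapping groups. Of 11 markers of leukocytes in general, 9 were above the blank range in both populations and 4 were called higher in zMP. Their mean levels were 8.48 and 8.22 in zSP and 9.44 and 9.62 in zMP. Of 7 lymphoid markers 2 were called higher in zMP, nkl.4 at -4.53 and cd28 at -1.45, with mean levels of 4.48 and 5.16 in zSP and 5.95 and 5.85 in zMP. Of these 7, btk was above the blank range in both populations and nkl.4 in zMP alone, while rag1, rag2, pax5, blnk and cd28 were within it in both. The 5 erythroid markers had 1 call, towards zMP, with mean levels of 2.85 and 3.24 in zSP and 3.82 and 4.09 in zMP. The call was hbaa1, with means of 3.86 in zSP and 8.11 in zMP, and the others were within the blank range in both populations. Of those, gata1a, named after its value was seen, differed the other way by 1.19 (0.57 to 1.82) and was not called. The part of these cell types in the differences of id1, id2b, bmpr1aa, fsta and inhbb was not tested, and in pooled RNA fewer cells of a type and less RNA per cell cannot be told apart.

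Aliquots of a pool correlated more closely than arrays of different pools. Across 15502 probe sets, which are not independent of each other, Pearson's r was 0.943 within zSP, 0.952 within zMP and 0.868 to 0.875 across populations. For 25 of the 46 genes (54.3%) the difference between populations was larger than both gaps between aliquots, against 49.6% of all genes. A limma fit sets the difference between the RNA pools, not the populations, against the spread of aliquots. With Benjamini-Hochberg adjustment over all genes it passed id1, id2b and bmpr1aa at adjusted p = 0.017, 0.027 and 0.0498, that is 3 of the 46 towards zSP against 3.05% of all genes. Towards zMP it passed none, against 0.478% of all genes. At an unadjusted p under 0.05 limma had 6 of the 46 towards zSP, against 11.9% of all genes, and 7 towards zMP, against 14.1%. The value of bmpr1aa lay at the edge of the threshold and rested on the 1 probe set with the highest mean.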

How the data were processed

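Per the submitters' processing notes, the deposited log2 values come from RMA as run in affy, on an Affymetrix zebrafish array. The sources used here give neither version nor settings. RMA corrects background, equalizes probe distributions between arrays and summarises probe sets, so levels near background are compressed. Of 15502 probe sets without controls, 10795 carried 1 gene in the platform annotation. Among several probe sets of a gene, that with the highest mean was used, a rule that can favour probe sets high in 1 population. Updating symbols with the GRCz12tu gene table renamed none of the 46 genes. The genes and lists were chosen with earlier results of these data known. All 46 genes could be named, and those called, above the blank range or in the Id family are given in full; from the other lists, up to 4 called genes or the 2 largest differences, with further genes marked where named. The blank range was set with the control values known. Alternatives were other sizes, each array left out, other scalings and probe set choices, and limma 3.58.1 in R 4.3.3, which compares RNA pools against aliquots. The 2 arrays per population limit precision. Sequences of the genes were not used here.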

Additional observations from a re-analysis of the deposited data

How the results depend on the processing

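The calls of id1 and id2b stood under every alternative tried except the fit with the replicate number as a block. Leaving out an array, the 1.5-fold size and the difference of means alone cannot remove a call, so they add no check. The number of genes called higher in zSP was 5 of 46 in the main setting, against 7.85% of all genes. It was 3 at 3-fold (against 4.50% of all genes) and 9 by the difference of means alone (against 14.16%). With a gene's probe sets averaged it was 3 (against 7.35%). Above the blank range it was 3 of 7 genes, against 16.95% of all genes there, and that filter favours genes high in 1 population. With 1 array left out, where only 2 pairs must pass, it was 6 to 9, against 11.0% to 12.5% of all genes. The count was 9 without zSP replicate 1 and 8 without zMP replicate 1. At 1.5-fold 7 genes were called higher in zSP, against 11.6% of all genes, and 4, bmp2b, gdf6b, gdf7 and nog3, higher in zMP (8.70%, against 9.66% of all genes). The limma fit between RNA pools passed 3 of the 46 genes. With the replicate block it passed 0, and 0 of all genes, while 7 of the 46 and 1865 of all genes had an unadjusted p under 0.05. The labels do not say that same-numbered aliquots share a step, and their deviations correlated by only -0.01, so the number is not taken as a pairing.

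The median over the 46 genes, -0.09, was 0.14 after cyclic loess, 1.65 above the blank range and -0.221 to -0.0774 with 1 array left out. That filter favours genes high in 1 population and also moved the Id median to 1.69 and the receptor median to 1.65, the latter being -0.14 to 0.21 with 1 array left out. The ligand median was -0.21 after median centring, -0.18 after a further quantile normalization, -0.0895 after cyclic loess, -0.23 without shared-sequence probe sets and -0.37 to -0.26 with 1 array left out. The median of the Smads and Smurfs was -0.0146 after the quantile step and 0.0046 after cyclic loess, and that of the extracellular regulators 0.0127 after cyclic loess. The cause of these moves was not tested. For ligands, extracellular regulators, Smads and Smurfs no group mean passed the blank range, so no value exists for that filter.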
